A study of Mus musculus with 6 samples.

Results

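The genes described here are 33 genes of mitochondrial fatty acid oxidation, ketone body synthesis and their control by the nuclear receptor PPARA, picked by symbol from the 24034 genes of a mouse liver expression table. All 33 were found in the table. RNA sequencing was done on liver of C57BL/6 mice aged 25 weeks, with 3 libraries labelled HO (genotype lncenc13A/3A, homozygous for an altered allele of Lncenc1, a gene for a long non-coding RNA) and 3 labelled WT (genotype lncenc1wt/wt). Both groups share strain, tissue and age, and the labels name no treatment, diet, sex or substrain. The series' design text calls the mutants knockouts. The labels do not describe the allele. Lncenc1 RNA was not analysed here, and the genotypes are taken as labelled. Separate animals are not stated for the 3 libraries of a group, so a p-value here measures the spread between these samples only, which may be technical. Expression was given as FPKM (fragments per kilobase of transcript, scaled to the mapped fragments of the library), so that levels can be compared between genes.

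Fatty acids that enter a hepatocyte are bound by a carrier protein, activated to acyl-CoA and, when long, passed into mitochondria as carnitine esters. In the matrix each turn of beta-oxidation runs through an acyl-CoA dehydrogenase, an enoyl-CoA hydratase, a hydroxyacyl-CoA dehydrogenase and a thiolase, and shortens the chain by an acetyl unit. Electrons from the dehydrogenases leave through the electron transfer flavoprotein, and the liver turns much of the acetyl-CoA into ketone bodies that other organs burn during fasting. PPARA, bound to DNA with a retinoid X receptor, raises the transcription of many of these genes when fatty acids are plentiful.

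PPARA and its partner bind a direct repeat of the half-site AGGTCA with a single base between the copies. That element, AGGTCANAGGTCA, was searched for on both strands in RefSeq promoters (GRCm38.p6, 250 bases before to 50 after a gene's start), allowing up to 2 mismatches outside the N. Of the members, 29 had a promoter there, with 31 windows in all. Acaa2, Decr1, Acat1 and Vnn1 had none. A match was found in 4 of the 31 windows, or 12.9%, against 3.86% of all 32851 windows. The exact element was in 0 member windows and in 13 of all windows (0.0396%). The matches were in Fabp1 (1 mismatch, first base 67 bases before the RefSeq start), Echs1 (2 mismatches, 83 before), Etfa (2 mismatches, 77 before) and Slc25a20 (2 mismatches, starting at base 7 after it). The first 3 are shown because Fabp1, Echs1 and Etfa carry parts of the results below, and the stretch between Hadha and Hadhb because that pair is read in opposite directions from starts 86 bases apart. Sequences run 5′ to 3′ on the gene's own strand, upstream of every exon of the gene annotated in GENCODE, with the match in capitals.
Fabp1, chr6:71199727-71199826, plus strand: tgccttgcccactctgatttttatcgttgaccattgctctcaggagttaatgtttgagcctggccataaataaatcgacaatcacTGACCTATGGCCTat
Etfa, chr9:55512244-55512343, minus strand: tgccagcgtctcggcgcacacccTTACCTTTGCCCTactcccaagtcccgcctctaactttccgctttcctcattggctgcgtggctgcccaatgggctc
Echs1, chr7:140116477-140116576, minus strand: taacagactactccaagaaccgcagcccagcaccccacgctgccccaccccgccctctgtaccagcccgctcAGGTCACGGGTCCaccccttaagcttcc
Hadha to Hadhb, chr5:30155163-30155247, plus strand: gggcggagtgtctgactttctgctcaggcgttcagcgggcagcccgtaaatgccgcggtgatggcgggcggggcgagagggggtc
In Fabp1 and Etfa the capitals read as the element's reverse complement, and the Hadha to Hadhb stretch has no capitals because no match lies in it. A match is a run of letters, not a shown binding site.

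Estimated depth spanned similar ranges in HO and WT, and the livers carried the markers of hepatocytes. The summed FPKM, which is already scaled to depth, was 495570 to 518218 in HO and 499151 to 506986 in WT. As a rough estimate of depth, the spacing of low values gave 19900000 to 24600000 read equivalents in HO and 19100000 to 23500000 in WT. Alb, the albumin gene, was at 25339 to 29603 FPKM in HO and 31203 to 33315 FPKM in WT. Of 13250 genes with a mean of at least 0.5 FPKM, 43 were higher and 108 lower in HO, or 1.14% in either direction (limma on log2(FPKM + 0.5), Benjamini-Hochberg adjusted p under 0.05). With median-of-ratios scaling the split was 67 higher and 66 lower. The middle of all genes tested lay below 0, at a median log2 change of -0.09, and this scaling moved it by 0.09. Sums of some markers of other cells differed too. The 6 stellate cell markers summed to 57.1 to 72.1 FPKM in HO and 84.4 to 107 in WT, mostly from Dcn, and 4 of them were lower without overlap. The 5 erythroid markers summed to 319 to 548 in HO and 644 to 667 in WT, mostly from globins. Among these, Alas2 overlapped, at 54.3 to 74.6 in HO and 55.1 to 56.1 in WT. The 8 Kupffer cell and macrophage markers summed to 62.3 to 81.5 in HO and 75.5 to 134 in WT, with overlap. Of 3 adipocyte markers in the table, Adipoq and Plin1 were listed at 0 in all libraries and Cfd was at 0.986 to 12.2 FPKM in HO and 44.0 to 56.2 in WT. Endothelial markers (6 genes) summed to 40.1 to 45.2 FPKM in HO and 41.8 to 53.1 in WT. Cholangiocyte markers (5 genes) summed to 20.0 to 23.0 in HO and 24.2 to 27.6 in WT. That sum is made mostly of Spp1, and Krt19, Krt7, Epcam and Sox9 overlapped. Lymphocyte and neutrophil markers (7 genes) summed to 2.75 to 7.31 in HO and 1.64 to 3.93 in WT. The 2 skeletal muscle markers in the table summed to 0.243 to 0.783 in HO and 0.552 to 0.985 in WT. Hepatocyte markers (7 genes) summed to 40069 to 45266 FPKM in HO and 45301 to 48086 in WT, a sum made mostly of Alb. Of the 7, Alb and Ttr were lower without overlap and Apoa1, Fgb, Hnf4a and Cps1 higher, and Cps1 passed the test, with 639, 695 and 853 FPKM in HO, against 358, 398 and 441 in WT (limma adjusted p = 0.0422). In bulk tissue, fewer cells of a type and less RNA per cell cannot be told apart. The part of these shifts in the results below was not tested. Nnt, which encodes the mitochondrial transhydrogenase and is known to be deleted in C57BL/6J but not in C57BL/6N mice, was at 0.794 to 1.48 FPKM in HO and 24.4 to 45.0 in WT, so background and mutation cannot be told apart for any gene below.

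All 33 members were expressed above the filter, and none passed the test over all genes. Values of Bdh1, Hadh, Fabp1, Acsm5, Acadm, Eci1, Vnn1 and Fgf21 were lower in every HO library than in any WT library. With limma and Benjamini-Hochberg adjustment over 13250 genes, 0 of 33 had an adjusted p under 0.05, and the smallest was 0.0582, for Acsm5. An unadjusted p under 0.05 was reached by 16 members, 15 lower and 1 higher in HO, or 48.5%, against 21.5% of all genes tested (16.5% lower and 5.01% higher). The groups did not overlap in 18 members, or 54.5%, against 27.9% of all genes. The 3 HO values lay all below the 3 WT values in 16 members, or 48.5%, against 21.4% of all genes, and all above in 2, or 6.06%, against 6.42%. Replicates of these genes lay close together: the median SD within a group was 0.12 on the log2 scale, against 0.18 over all genes tested. The genes tested reach down to a mean of 0.5 FPKM, and neither this SD nor the shares above were matched for expression level. The log2 change was negative in 22 members and positive in 11. The negative share of 66.7% was near that of all genes tested, 64.6%. After median-of-ratios scaling the negative shares were 63.6% of members and 50.4% of all genes. The members' median log2 change was -0.17, against -0.09 over all genes, and after scaling these medians were -0.07 and 0.00, so part of the members' shift was shared by all genes. The call depended on weighting and on single libraries: 11 members passed, all lower in HO, when limma's array weights were used, and so did 7.10% of all genes tested. With robust eBayes 1 member passed (Fabp1), along with 1.19% of all genes. Without WT replicate 3 it was 4 members (Hadh, Bdh1, Acadm and Eci1) and 1.96% of all genes, and without HO replicate 2 it was 1 member (Fgf21) and 0.264% of all genes. With any other single library left out, no member passed.

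**Figure D1:**
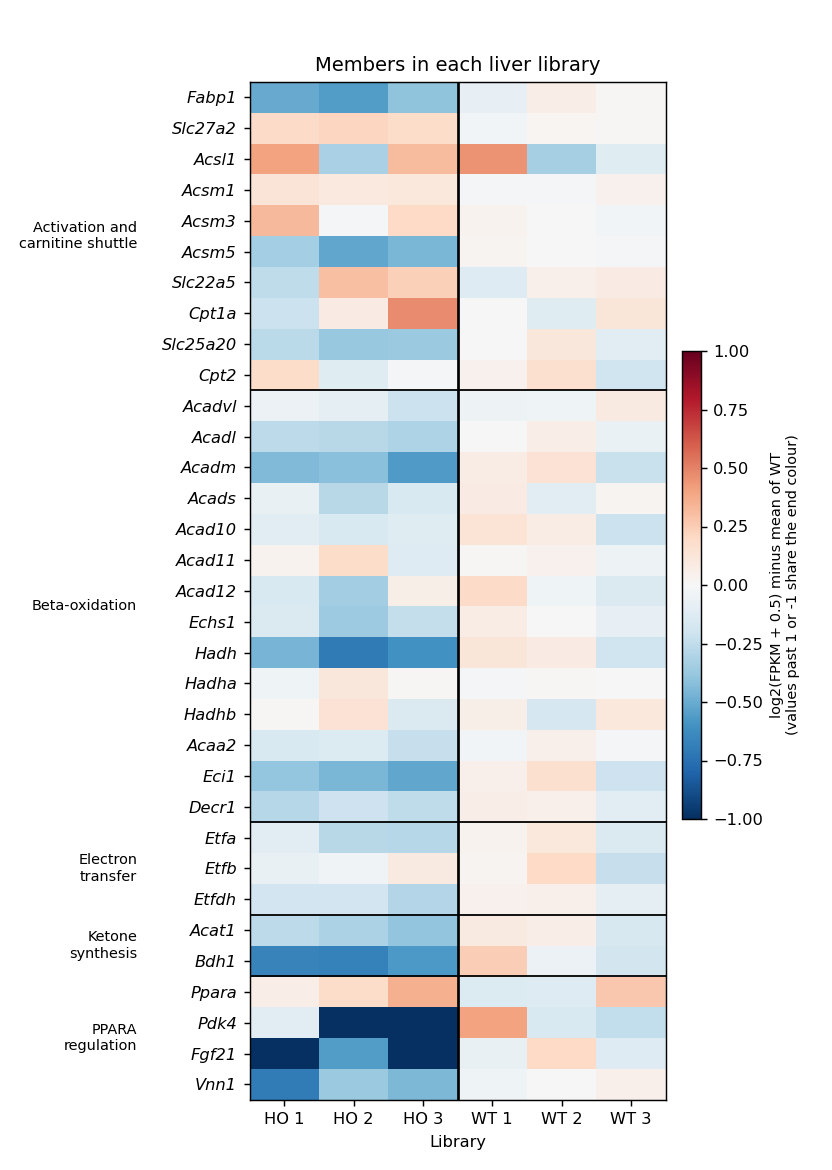
Each row is a member, grouped by step, and each column a library, with HO left of WT. Colour gives log2(FPKM + 0.5) minus the mean of the 3 WT libraries, blue below and red above it. Bdh1, Hadh, Fabp1, Acsm5, Fgf21 and Vnn1 are blue in all 3 HO libraries, Slc27a2 is pale red in all 3, and Acsl1 varies as much within the groups as between them.

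**Figure D2:**
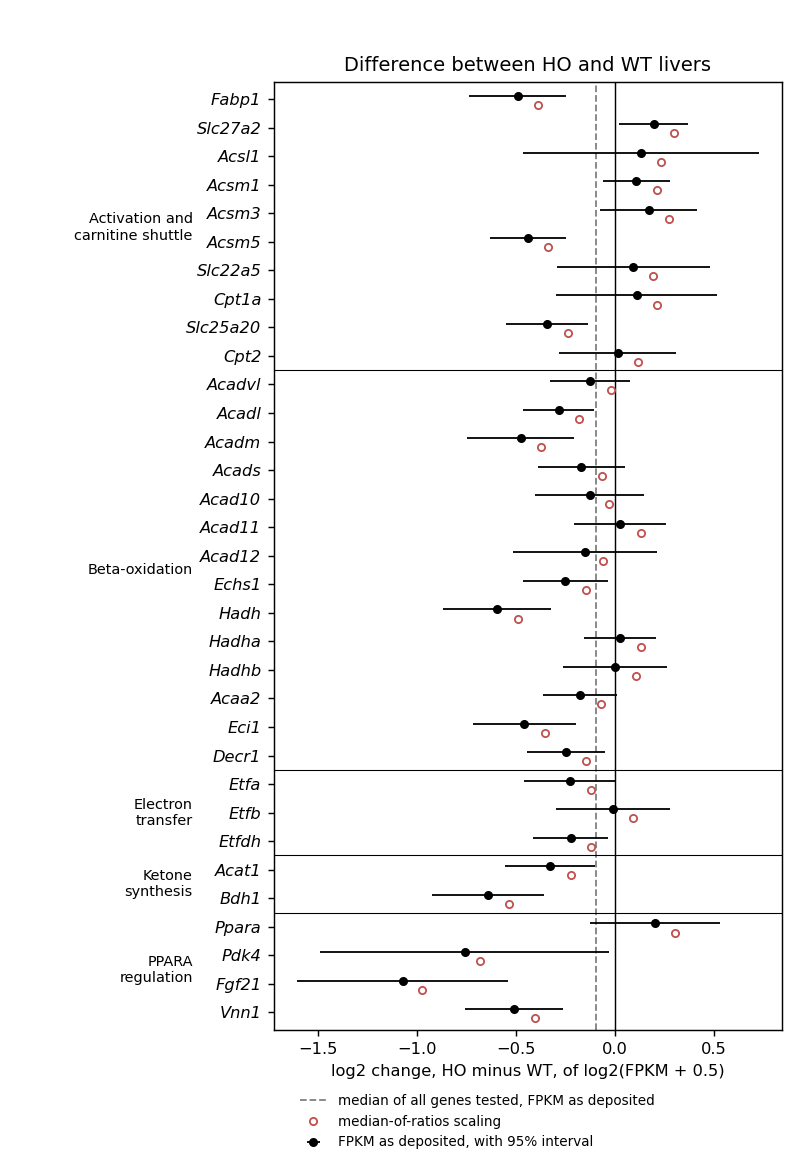
Filled points give the log2 change, HO minus WT, of each member with its 95% interval, and open points the same after median-of-ratios scaling. The dashed line is the median of all genes tested, at -0.09. The members run between -1.07 (Fgf21) and 0.20 (Ppara), and scaling moves all of them to the right by about the same amount.

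The steps of uptake, activation and carnitine transfer did not move together, with Fabp1, Acsm5 and Slc25a20 lower in HO livers and the remaining 7 genes at a similar or higher level. The median log2 change of the 10 genes was 0.10, or 0.20 after median-of-ratios scaling. Fabp1, the cytosolic fatty acid carrier of hepatocytes and the most abundant member, had 5096, 4904 and 5448 FPKM in HO livers, against 6817, 7578 and 7287 in WT livers. Each HO value was lower than each WT value, with a difference in means of -28.7%, and the log2 change was -0.49 ± 0.10 (SE, limma adjusted p = 0.0749). The gene lies on chromosome 6 from 71199827 to 71205023 (mm10). Because Fabp1 made up 82.1% of the summed FPKM of this step, that sum was 6549 ± 345 in HO and 8526 ± 324 in WT (SD, n = 3 each).

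Activation to acyl-CoA is done by synthetases of different chain length. Acsm5, a mitochondrial synthetase for medium-chain acids, had 39.1, 34.5 and 36.0 FPKM in HO livers, against 50.6, 49.4 and 48.9 in WT livers. The groups did not overlap, and the log2 change was -0.44 ± 0.08 (SE, limma adjusted p = 0.0582). Its relatives went the other way in value: Acsm1 averaged 164 ± 1.56 FPKM in HO and 152 ± 3.63 in WT, and Acsm3 averaged 43.6 ± 5.15 in HO and 38.5 ± 0.893 in WT (SD, n = 3 each). The HO values of Acsm1 all lay above those of WT, and those of Acsm3 overlapped with WT (limma adjusted p = 0.415 and 0.388). All 3 genes lie on chromosome 7, from 119519463 (Acsm5) to 119787513 (Acsm3). Slc27a2, which takes up fatty acids and activates very long chains, had 609, 618 and 606 FPKM in HO livers, against 523, 539 and 536 in WT livers. It was the member with the tightest replicates, and its groups did not overlap, but the log2 change of 0.20 ± 0.07 did not pass (SE, limma adjusted p = 0.186). Acsl1, the main long-chain synthetase of liver, had 313, 189 and 294 FPKM in HO, against 322, 188 and 218 in WT. Its spread within each group was wider than the difference between them (limma adjusted p = 0.802).

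Cpt1a, the carnitine palmitoyltransferase of the outer membrane that sets the rate of long-chain entry, had 104, 128 and 168 FPKM in HO livers, against 122, 111 and 132 in WT livers. The groups overlapped, and the 95% interval of the log2 change ran from -0.30 to 0.52 (limma adjusted p = 0.753), which leaves room for a change of either sign. Slc25a20, the carrier that exchanges acylcarnitine for carnitine across the inner membrane, had 70.2, 65.0 and 65.4 FPKM in HO, against 84.5, 91.6 and 78.6 in WT. Its groups did not overlap, and the log2 change came to -0.34 ± 0.09 (SE, limma adjusted p = 0.0971). Cpt2, which turns acylcarnitine back into acyl-CoA, averaged 66.2 ± 7.28 FPKM in HO and 65.5 ± 8.21 in WT, and Slc22a5, the plasma membrane carnitine transporter, averaged 12.4 ± 2.57 in HO and 11.5 ± 0.929 in WT (SD, n = 3 each). Both overlapped between the groups (limma adjusted p = 0.958 for Cpt2 and 0.778 for Slc22a5).

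Within beta-oxidation, 11 of 14 genes had a lower value in HO livers, or 78.6%, against 64.6% of all genes tested. In 8 the HO values all lay below WT, or 57.1%, against 21.4% of all genes. The median log2 change of this step was -0.17, or -0.07 after median-of-ratios scaling. Hadh, the matrix 3-hydroxyacyl-CoA dehydrogenase for short and medium chains, had 170.5, 144 and 155 FPKM in HO livers, against 256, 249 and 205 in WT livers. The highest HO value lay below the lowest WT value, and the log2 change of -0.59 ± 0.12 was the most negative of the step (SE, limma adjusted p = 0.0635). Hadh lies on chromosome 3 from 131233419 to 131272101. Acadm, the medium-chain acyl-CoA dehydrogenase, had 157, 159 and 143 FPKM in HO, against 225, 235 and 182 in WT. Eci1, an enoyl-CoA isomerase needed for unsaturated chains, had 106, 101 and 96.6 FPKM in HO, against 144, 155 and 120.2 in WT. Neither overlapped between the groups, and their log2 changes were -0.48 ± 0.11 and -0.46 ± 0.11 (SE, limma adjusted p = 0.0894 for both). In Hadh, Acadm and Eci1, WT replicate 3 was the WT library nearest to HO. Without it all 3 passed (limma adjusted p = 0.0358, 0.0409 and 0.0448). Over the fits that left out 1 library, their largest limma adjusted p were 0.216, 0.261 and 0.259.

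The other dehydrogenases differed less. Acadvl, for very long chains, had 206, 200.4 and 185 FPKM in HO livers, against 207, 208 and 229 in WT livers, so that the groups were only just apart (limma adjusted p = 0.449). Acadl, for long chains, averaged 108 ± 1.76 FPKM in HO and 132 ± 5.87 in WT, without overlap, and the short-chain Acads averaged 53.5 ± 3.84 in HO and 60.1 ± 4.15 in WT, with overlap (SD, n = 3 each; limma adjusted p = 0.102 and 0.351). The less studied family members Acad10, Acad11 and Acad12 overlapped between the groups. Acad11 was at 125 to 155 FPKM in HO and 132 to 140.2 in WT, while Acad10 was at 9.39 to 9.71 in HO and 8.99 to 11.6 in WT, and Acad12 at 2.58 to 3.59 in HO and 3.05 to 3.99 in WT (limma adjusted p of 0.572 or more for all 3).

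Hadha and Hadhb, whose products form the trifunctional protein that carries out the last 3 reactions for long chains on the inner membrane, did not separate between the groups. Hadha had 105, 117 and 109 FPKM in HO livers, against 107, 109 and 109 in WT livers. Hadhb had 82.3, 90.2 and 73.9 FPKM in HO, against 85.2, 72.9 and 87.9 in WT. In both genes the HO and WT values were interleaved, and the 95% intervals of the log2 change were -0.15 to 0.21 for Hadha and -0.26 to 0.27 for Hadhb. The short stretch printed above lies between the starts of these genes and holds no match to the PPARA element. That does not set them apart, since a match was found in only 4 of 31 member windows, and none in those of Hadh, Acadm or Bdh1. A link between matches and changes was not tested.

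The remaining matrix enzymes had lower values in HO livers. Echs1, the enoyl-CoA hydratase for short chains, averaged 109.8 ± 8.47 FPKM in HO and 131 ± 7.12 in WT, and Decr1, a reductase for unsaturated chains, averaged 68.1 ± 1.85 in HO and 81.1 ± 5.53 in WT. Acaa2, the matrix thiolase and the most abundant gene of the step, averaged 574 ± 20.4 in HO and 648 ± 19.2 in WT (SD, n = 3 each). None of the 3 overlapped between groups, and their limma adjusted p-values were 0.179, 0.158 and 0.257. Set side by side after their values were seen, 8 soluble matrix enzymes (Acadm, Acads, Acadl, Echs1, Hadh, Acaa2, Eci1 and Decr1) summed to 1368, 1321 and 1284 FPKM in HO, against 1677, 1717 and 1532 in WT. In 7 of the 8 the HO values all lay below WT, as in 21.4% of all genes tested, but the 8 were picked with these values known. Their median log2 change was -0.27, or -0.16 after median-of-ratios scaling. The 5 proteins of the inner membrane that handle long chains (Slc25a20, Cpt2, Acadvl, Hadha and Hadhb) summed to 538, 533 and 498 FPKM in HO, against 552, 554 and 561 in WT. These sums did not overlap either, with a difference in means of -5.86% against -19.3% for the matrix enzymes. Without Slc25a20, which was lower in each HO library, the sums of the other 4 were 468, 468 and 433 FPKM in HO, against 467, 462 and 482 in WT, and overlapped. The difference between these groups of enzymes was not tested, since the groups were formed with the values known. Some members of both compartments were left out of them. At the inner membrane, Bdh1 and Etfdh were lower in HO without overlap (log2 change -0.64 and -0.22). In the matrix, Acat1 was lower without overlap (-0.33), while Etfa and Etfb overlapped (-0.23 and -0.01).

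**Figure D3:**
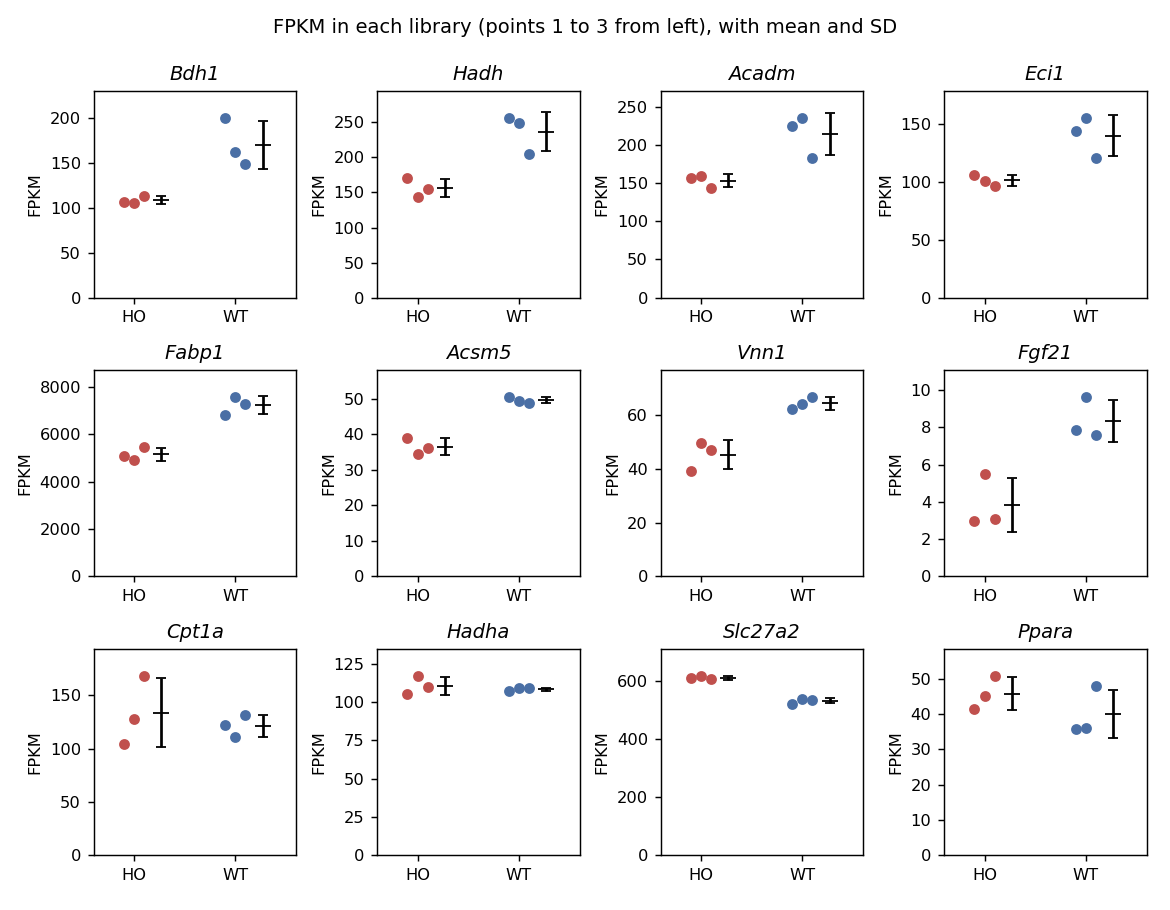
FPKM of 12 members in each library (points, replicates 1 to 3 from left), with the mean and SD beside them and each axis starting at 0. In Bdh1, Hadh, Acadm, Eci1, Fabp1, Acsm5, Vnn1 and Fgf21 the 3 HO libraries lie below all WT libraries. In Slc27a2 they lie above, and in Cpt1a, Hadha and Ppara the groups overlap.

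Electron transfer from the dehydrogenases runs through the flavoprotein subunits Etfa and Etfb to Etfdh, the oxidoreductase that passes electrons on to ubiquinone. Etfdh had 116, 116 and 108 FPKM in HO livers, against 136, 137 and 124 in WT livers. The groups did not overlap, and the log2 change came to -0.22 ± 0.08 (SE, limma adjusted p = 0.179). Etfa had 253, 225 and 224 FPKM in HO, against 279.8, 294 and 248 in WT, where HO replicate 1 lay above WT replicate 3 (limma adjusted p = 0.244). Etfb had 303, 311 and 339 FPKM in HO, against 325, 367 and 273 in WT. The groups of Etfb were interleaved, and its log2 change of -0.01 turned to 0.09 after median-of-ratios scaling (limma adjusted p = 0.976 and 0.722). The 2 subunits of the flavoprotein therefore did not show the same values, with a difference in means of -14.6% in Etfa and -1.26% in Etfb. The difference between them was not tested.

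Both genes of ketone metabolism among the members were lower in value in every HO library than in any WT library. Bdh1, the inner membrane enzyme that reduces acetoacetate to beta-hydroxybutyrate, had 106, 106 and 113 FPKM in HO livers, against 200.2, 162 and 148 in WT livers. The difference in means was -36.4% of WT, and the log2 change was -0.64 ± 0.12 (SE, limma adjusted p = 0.0587). Bdh1 lies on chromosome 16 from 31422280 to 31458901 and passed without WT replicate 3 (limma adjusted p = 0.0415). With another library left out its limma adjusted p rose to as much as 0.186. Acat1, the mitochondrial acetoacetyl-CoA thiolase, had 135, 129 and 123 FPKM in HO, against 172, 169 and 144 in WT (log2 change -0.33 ± 0.10, SE, limma adjusted p = 0.123).

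Among the genes of PPARA control, the receptor itself had a higher mean in HO livers, and the 3 genes that it is known to induce had lower means. Ppara had 41.4, 45.0 and 50.8 FPKM in HO livers, against 35.9, 36.1 and 47.8 in WT livers. The groups overlapped through WT replicate 3, and the 95% interval of the log2 change ran from -0.13 to 0.53 (limma adjusted p = 0.442). Fgf21, a hormone that liver releases in fasting, had 2.95, 5.49 and 3.07 FPKM in HO, against 7.85, 9.63 and 7.58 in WT. It had the most negative log2 change of all members, -1.07 ± 0.23 (SE, limma adjusted p = 0.0747), at a low level. Without HO replicate 2, the HO library nearest to WT, Fgf21 passed (limma adjusted p = 0.0389). With another library left out its limma adjusted p rose to as much as 0.228. Vnn1, a membrane-bound pantetheinase, had 39.5, 49.8 and 47.0 FPKM in HO, against 62.4, 64.1 and 66.9 in WT (log2 change -0.51 ± 0.11, SE, limma adjusted p = 0.0727). Pdk4, a kinase that closes pyruvate dehydrogenase when fat is burnt, had 2.06, 0.770 and 0.821 FPKM in HO, against 3.13, 1.97 and 1.81 in WT. HO replicate 1 of Pdk4 lay within the WT range, and the gene had the widest replicates of all members (limma adjusted p = 0.220).

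Genes of the same pathway outside the members gave calls mainly in a list of PPARA targets drawn up for peroxisomes and microsomes, which also holds targets of other compartments. Of its 29 genes, all tested, 6 fell and none rose (limma), while 0.815% of all genes tested fell and 0.325% rose, and 23 had a negative log2 change, or 79.3%, against 64.6% of all genes, with a median of -0.39. Those that fell were Cd36, which takes up fatty acids at the plasma membrane, the mitochondrial thioesterase Acot2, the peroxisomal thiolase Acaa1b, the peroxisomal transporter Abcd2, and the acyl-CoA thioesterases Acot3 and Acot4. For example, Cd36 had 17.6, 21.2 and 19.6 FPKM in HO, against 51.7, 46.0 and 48.8 in WT (log2 change -1.31 ± 0.10, SE, limma adjusted p = 0.0109). Cd36 passed with each library left out in turn (largest limma adjusted p = 0.0490), and the other 5 each missed the threshold without at least 1 library. This list and the others were drawn up with earlier results of these data known, so their counts are not independent evidence. Of 26 other genes of mitochondrial oxidation and ketone metabolism, 23 passed the filter and 1 fell, the mitochondrial thioesterase Acot13, with 42.0, 32.0 and 34.6 FPKM in HO, against 62.7, 61.0 and 54.9 in WT (limma adjusted p = 0.0484). It did not pass after median-of-ratios scaling (limma adjusted p = 0.0737). The median log2 change of those 23 was -0.23.

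None of 17 partners and coregulators of PPARA passed (limma), and 8 had an unadjusted p under 0.05, 5 lower and 3 higher, or 47.1%, against 21.5% of all genes. The smallest p in that list were those of the retinoid X receptor gene Rxrg, at 1.37 to 2.24 FPKM in HO and 3.07 to 4.31 in WT, Pparg, at 2.66 to 4.68 in HO and 5.52 to 8.58 in WT, and of the coactivator subunit Med1, at 6.58 to 8.85 in HO and 3.56 to 5.50 in WT (limma adjusted p = 0.0811, 0.0889 and 0.0940). Rxra, the abundant retinoid X receptor of liver, was at 110.3 to 134 FPKM in HO and 92.0 to 120.1 in WT, with overlap. None of 17 genes of the citric acid cycle passed either (limma), with 6 at an unadjusted p under 0.05, or 35.3%, against 21.5% of all genes. Their median log2 change was -0.17, against -0.09 over all genes, and their groups did not overlap in 8, or 47.1%, against 27.9% of all genes. The smallest p were those of Fh1, the fumarase, at 80.3 to 91.5 FPKM in HO and 62.9 to 64.8 in WT, Suclg2, a succinyl-CoA ligase subunit, at 64.9 to 68.9 in HO and 79.6 to 93.6 in WT, and the citrate synthase gene Cs, at 34.4 to 44.0 in HO and 45.6 to 54.7 in WT (limma adjusted p = 0.0571, 0.0804 and 0.147). After median-of-ratios scaling Fh1 passed as higher (limma adjusted p = 0.0420).

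The HO libraries differed from each other in the summed level of acute phase genes. The 16 genes of that list summed to 4547, 17018 and 15062 FPKM in HO libraries 1 to 3, against 4036, 3330 and 4478 in WT, so that the sum of HO replicate 1 was close to WT. That sum is made mostly of a few abundant genes. Of the list 3 rose, Socs3, Saa4 and Il1r1 (limma), and none fell, and in these HO replicate 1 stood above all WT libraries. Socs3, a feedback inhibitor of cytokine signalling, had 24.3, 11.4 and 18.4 FPKM in HO, against 2.43, 1.97 and 3.68 in WT. In 9 of the 16 genes, or 56.25%, all HO libraries lay above all WT libraries, against 6.42% of all genes tested. In the members the median deviation of HO replicate 1 from the WT mean was -0.15 on the log2 scale, against -0.28 and -0.23 in HO replicates 2 and 3. In WT replicates 1 to 3 that deviation was 0.03, 0.04 and -0.08, so HO replicate 1 was the HO library nearest to WT. Without HO replicate 1 the members' median log2 change was -0.22, and 0 passed (limma, smallest adjusted p = 0.0528). The ketone pair gave 241, 235 and 236 FPKM in HO, against 373, 331 and 293 in WT. The part of the acute phase genes in the members' values was not tested.

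**Figure D4:**
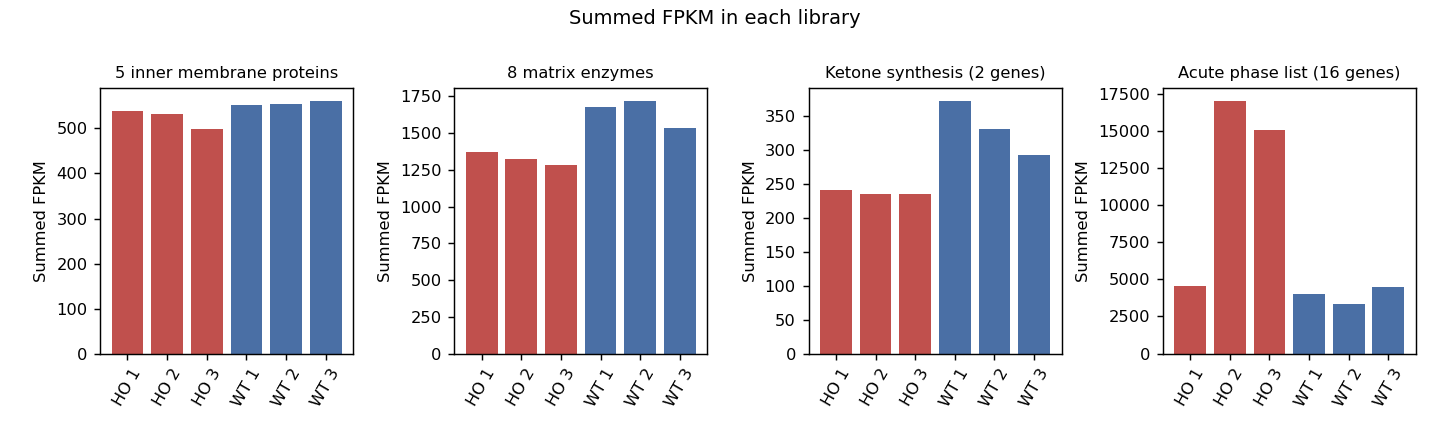
Bars give summed FPKM in each library, HO left of WT, for the 5 inner membrane proteins, the 8 matrix enzymes, the 2 ketone genes and the 16 acute phase genes. The matrix and ketone sums are lower in all 3 HO libraries, the inner membrane sums are lower by less, and the acute phase sum is high in HO replicates 2 and 3 only.

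Over all members the summed FPKM was 9442, 9098 and 9702 in HO libraries, against 11638, 12333 and 11726 in WT libraries, or 1.81% to 1.96% of all FPKM in HO and 2.30% to 2.44% in WT. Most of that gap was Fabp1. Without it the 32 other members summed to 4264 ± 76.7 FPKM in HO and 4671 ± 204 in WT (SD, n = 3 each), a change of -8.72%. The levels spanned a wide range in WT, from Fabp1 at 7227 FPKM through Acaa2 (648) and Slc27a2 (533) down to Fgf21 (8.35), Acad12 (3.45) and Pdk4 (2.30). Exons of 11 members overlap those of another annotated gene, in 10 of them on the opposite strand, and no source used here says if counting took the strand into account. They are Slc27a2, Acsl1, Acsm3, Acsm5 (with Pdilt), Acadvl (with Dvl2), Acad11, Echs1 (with Paox), Hadha (with Garem2), Etfb, Etfdh and Bdh1 (with the antisense Gm15743), and their values are less certain.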

How the data were processed

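Liver RNA was extracted with Trizol and made into directional Illumina libraries, per the labels' protocols. The authors deposited FPKM values. Per the submitters' processing notes, HISAT2, HTSeq, DESeq2, StringTie and mm10 were used, in roles not given there. Columns were matched to samples by the group and number in their names. Gene positions came from GENCODE (mouse release M21), which holds each of the 24034 identifiers.

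FPKM is not a count. Of the low values in a library, 27.0% to 28.7% came out as whole reads within 0.02, too few to recover counts, so no count model was fitted. A gene of 2000 bases at 0.5 FPKM would hold 19.1 to 24.6 reads.

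Genes that averaged at least 0.5 FPKM were fitted as log2(FPKM + 0.5), which understates changes of low genes, with limma 3.58.1 in R 4.3.3 (2 groups of 3, eBayes with trend, two-sided, Benjamini-Hochberg over 13250 genes). The fit was tested on simulated data. Members and lists were chosen with earlier results of these data known. Values in every library are given for the 3 members of each step with the smallest p and for 10 members set by name. Acsl1, Slc27a2 and Hadhb were added after their values were seen. Of other lists, the called genes or else the 3 with the smallest p are named. Alternatives covered pseudocounts, filters, scaling, eBayes, array weights (statmod 1.5.0), a replicate block and leaving out each library. Python 3.11.15, pandas 2.3.3 and matplotlib 3.10.9 were used.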

Additional observations from a re-analysis of the deposited data

How the results depend on the processing

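The number of members called was 0 as reported and also with both other pseudocounts, both other filters, both other scalings, no trend and the replicate block. It was 1 with robust eBayes and 11 with array weights, and 0 to 4 when a library was left out. The number of all genes called was 100 at a pseudocount of 0.1, 40 with no filter, 77 with no trend, 941 with array weights, 25 with the replicate block and 6 to 259 with a library left out, against 151. Leaving out HO replicate 2 gave 35, HO replicate 3 gave 15, WT replicate 1 gave 9, WT replicate 2 gave 6 and WT replicate 3 gave 259. Genes called in the other lists numbered 4 with no filter, 31 with array weights, 5 with the replicate block and 1 to 18 with a library left out, against 10. The extremes were 18 without HO replicate 1 and 1 without WT replicate 2. The members' median log2 change was -0.071 with median-of-ratios scaling and -0.23 to -0.17 with a library left out, against -0.17. Members whose groups did not overlap numbered 14 with median-of-ratios scaling and 18 to 23 with a library left out, against 18. The matching shares of all genes were not computed for these settings, and smaller groups separate more easily. These counts therefore cannot be set against a background. Same-numbered deviations correlated at 0.07, -0.03 and 0.01, which gave no sign in expression of pairing by replicate number but cannot exclude it in groups of 3. Estimated depth did follow the replicate number. It was 19900000, 24600000 and 22600000 read equivalents in HO replicates 1 to 3, and 19100000, 23500000 and 21900000 in WT replicates 1 to 3. Whether same-numbered libraries were handled together was not tested. No member was called with the replicate block or without it, so that call says nothing on pairing. The cause of these shifts was not tested.

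Members near 0 changed sign in places, none of them past the threshold. With median-of-ratios scaling this was Etfb (0.094), and with array weights Cpt2 (-0.060) and Acad11 (-0.017). Over the fits that left out 1 library, the log2 change ran from -0.033 to 0.36 for Acsl1, -0.0098 to 0.27 for Slc22a5, -0.069 to 0.27 for Cpt1a and -0.085 to 0.095 for Cpt2. It ran from -0.047 to 0.11 for Acad11, -0.014 to 0.063 for Hadha, -0.080 to 0.076 for Hadhb and -0.12 to 0.092 for Etfb. The cause was not tested. Genes near the filter rest on few reads.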
